A study of Homo sapiens with 18 samples.

Results

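OTX015 (birabresib) is a small molecule that occupies the acetyl-lysine pockets of the BET proteins, and its effect on RNA after 8 h was followed here in 2 triple-negative breast cancer lines. The comparison used the 6 arrays of 8 h out of the 18 arrays of the study. In each line 1 array came from cells given OTX015, 1 from cells given the solvent DMSO and 1 from untreated cells. The other 12 arrays hold the same conditions at 4 and 24 h. MDA-MB-231 received 75 nM OTX015 and MDA-MB-468 received 650 nM, the doses given in the study for each line. Line and dose therefore cannot be told apart. Both lines are established cultures of metastatic breast carcinoma that lack estrogen and progesterone receptors and ERBB2 amplification. The labels name no engineered alleles, and no source used here says whether the arrays came from separate cultures, so the p-values measure only the spread between arrays.

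BET proteins, such as BRD2 and BRD3, carry paired bromodomains that read acetylated histones at promoters and enhancers. The kinase complex P-TEFb releases RNA polymerase II from its pause near the start site. BET inhibitors displace these proteins from chromatin, and lowered MYC with raised HEXIM1, SERPINI1 and histone transcripts is widely used as a readout of the drugs in other cell types.

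The arrays were Illumina HumanHT-12 v4 BeadChips, on which a probe is a short oligonucleotide read as a fluorescent intensity. Values below are normalized log2 intensities, so a difference of 1 is a doubling, and levels are compared only within a probe. A probe was tested when it exceeded the olfactory receptor probes' 95th percentile, here called the floor, on at least 3 of the 18 arrays. That left 23865 of 47231 probes. A probe was called when its adjusted p in limma was at most 0.05 and its log2 fold change at least 0.5 in size. The OTX015 array of MDA-MB-468 had the lowest mean signal of the series, 173.7, against 259.3 with DMSO and 325.4 untreated in that line. In MDA-MB-231 the means were 375.3 with OTX015, 368.0 with DMSO and 334.8 untreated. Most tested line markers followed the labels. CDH1, the epithelial cadherin, read 10.73 to 11.24 in MDA-MB-468, against 5.94 to 6.06 in MDA-MB-231. VIM, the mesenchymal filament vimentin, read 9.14 to 9.41 in MDA-MB-468, against 13.41 to 13.47 in MDA-MB-231. CLDN4, a marker listed for MDA-MB-468, did not follow, with 5.86 to 6.51 there against 6.35 to 6.59 in MDA-MB-231. CDH2, listed for MDA-MB-231, was weak, and with OTX015 it read 6.12 there against 6.22 in MDA-MB-468. The listed markers SPARC, FN1, KRT14 and KRT17 were not among the tested genes. Of the blood and vessel cell markers, CD3E, PTPRC and HBB were not among the tested genes. CD14, a monocyte surface protein, was above the floor on all 6 arrays (8.04 with OTX015 against 8.44 and 8.41 in the controls of MDA-MB-468, and 6.86 against 7.01 and 6.93 in MDA-MB-231), and PECAM1, an endothelial adhesion protein, on 1 OTX015 and 3 control arrays. Neither was called, and their part in the results was not tested. A lower signal from fewer cells that make a transcript and from less of it in each cell cannot be told apart in such bulk RNA.

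Over both lines, 59 probes were higher and 28 lower with OTX015 after 8 h. In order of size, the strongest rises were those of the histone gene H2BC5, EFR3B, the cell cycle inhibitor CDKN1A, the receptor FGFR3, the interferon regulator IRF7, the histone gene H2AC6 and the neuronal tubulin TUBB3. The histone genes H2BC12 and H4C8 and the Notch-related repressor HES6 were also among the 12 strongest. The epithelial transcription factor SPDEF led the falls, with TRIP6, JADE2, LTBR and TCF3. The 87 called probes were 0.365% of the tested ones (0.247% higher and 0.117% lower), belonged to 74 named genes, and the lowest adjusted p was 0.00951. All 59 and all 28 lay outside both controls in both lines, a pattern seen upward in 4380 and downward in 4834 of all tested probes. The probes were called from these same values, so the pattern adds no support to the calls. The test used limma with cell line as a block on the 6 arrays, which leaves 3 residual degrees of freedom. A response that differs in size between the lines therefore widens the error. A fit of all 18 arrays takes its spread from the pairs of DMSO and untreated arrays alone, and assumes that each lone OTX015 array varies like them. With the spread taken from all 18 arrays the count was 881, and it was 4 with either control alone, 0 without the untreated array of MDA-MB-231, 5 without its DMSO array, 0 without either control of MDA-MB-468, and 3412 or 311 when the treated array of MDA-MB-231 or that of MDA-MB-468 was left out.

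**Figure D1:**
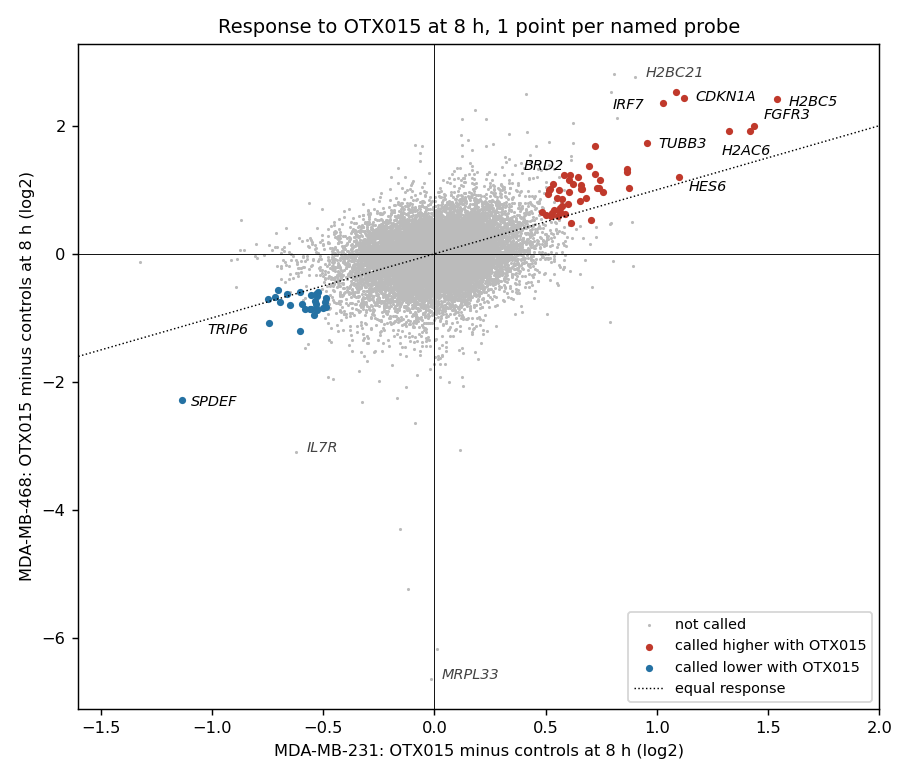
Response at 8 h of each tested probe with a gene symbol in MDA-MB-231 (x axis) and MDA-MB-468 (y axis), as log2 intensity with OTX015 minus the mean of both controls. Red and blue points are the named probes among the 59 called higher and 28 called lower, grey points were not called, and the dotted line marks equal responses. Of all 59 and 28 called probes, 56 and 23 lay farther from 0 in MDA-MB-468, as did about 16640 of the 23865 tested probes.

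H2BC5 encodes a histone H2B, one of the 4 core proteins of the nucleosome. Its brighter probe read 10.59 with OTX015 against 9.03 with DMSO and 9.06 untreated in MDA-MB-231, and 10.67 against 8.33 and 8.16 in MDA-MB-468. Here and below, the 2 control values of a line are DMSO, then untreated. Both OTX015 arrays were well above all 4 control arrays. The log2 fold change over both lines was 1.98 (standard error 0.176, adjusted p = 0.0111), or 2.91-fold in MDA-MB-231 and 5.36-fold for MDA-MB-468. A second H2BC5 probe gave 1.67 (adjusted p = 0.00951). H2AC6, which encodes a histone H2A, read 9.98 against 8.75 and 8.56 in MDA-MB-231, and 9.76 against 7.89 and 7.81 in MDA-MB-468, again with no overlap. Its log2 fold change was 1.62 (standard error 0.137, adjusted p = 0.00951).

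CDKN1A encodes p21, which binds and inhibits cyclin-dependent kinases. It read 11.20 with OTX015 against 10.10 with DMSO and 10.04 untreated in MDA-MB-231, and 11.48 against 9.17 and 8.92 in MDA-MB-468. The controls of MDA-MB-468 sat lowest, and its OTX015 array highest. The log2 fold change was 1.78 (standard error 0.246, adjusted p = 0.0432) over both lines. In single lines it was 1.12 in MDA-MB-231, against 2.43 in MDA-MB-468, and the difference of 1.31 between them passed its own test (adjusted p = 0.00120).

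FGFR3, a receptor tyrosine kinase for fibroblast growth factors, read 7.68 against 6.31 and 6.18 in MDA-MB-231, and 8.97 against 7.05 and 6.88 in MDA-MB-468. Its log2 fold change was 1.72 (standard error 0.134, adjusted p = 0.00951). In MDA-MB-231 its controls were not above the floor, so the change there was at least 2.50-fold, computed with the floor in place of any lower control signal. A second FGFR3 probe had 0.06 (adjusted p = 0.747), so only 1 of the 2 probes was called. EFR3B, whose product tethers a phosphoinositide kinase to the membrane, was likewise raised at 1 of 3 probes, by at least 2.94-fold over both lines (adjusted p = 0.0466), and its 4 control values, 5.95 to 6.22, were below the floor. IRF7, a transcription factor that drives type I interferon genes, read 8.87 against 7.81 and 7.87 in MDA-MB-231, and 9.80 against 7.56 and 7.34 in MDA-MB-468 (log2 fold change 1.69, standard error 0.247, adjusted p = 0.0466). Its second probe had 1.16 and did not pass (adjusted p = 0.0834).

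TUBB3, a beta-tubulin of neurons and many carcinomas, read 11.19 against 10.35 and 10.12 in MDA-MB-231, and 11.42 against 9.75 and 9.63 in MDA-MB-468. The change of 1.34 (standard error 0.166, adjusted p = 0.0387) put both treated arrays above all controls. HES6, a helix-loop-helix protein that counteracts the Notch effector HES1, had the smallest difference between the lines among the 12 strongest rises. It read 8.22 against 7.23 and 7.02 in MDA-MB-231, and 10.51 against 9.34 and 9.27 in MDA-MB-468, a change of 1.15 (standard error 0.0958, adjusted p = 0.00951). The control levels of the lines were far apart, and the changes of 1.10 in MDA-MB-231 and 1.20 for MDA-MB-468 differed by 0.10 (adjusted p = 0.736). ZFP36, which encodes the mRNA decay factor tristetraprolin, changed by 1.09 (standard error 0.121, adjusted p = 0.0322), and GDF11, a TGF-beta family ligand, by 1.03 at 1 of 2 probes (adjusted p = 0.0446).

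BRD2, itself a target of OTX015, read 11.41 with OTX015 against 10.76 with DMSO and 10.77 untreated in MDA-MB-231, and 11.66 against 10.62 and 10.30 in MDA-MB-468. It rose by 0.92 (standard error 0.142, adjusted p = 0.0490), just inside the threshold. BRD3 had -0.02 (adjusted p = 0.936), with readings of 8.40 against 8.76 and 8.63 in MDA-MB-231 and 8.92 against 8.61 and 8.74 in MDA-MB-468, on opposite sides of their controls. HEXIM1, the inhibitor of P-TEFb, read 6.60 against 6.59 and 6.45 in MDA-MB-231, and 6.69 against 6.38 and 6.48 in MDA-MB-468. Its change of 0.17 (adjusted p = 0.328) did not pass. Of 13 tested genes of P-TEFb, its 7SK complex and partner factors none was called over both lines. Over all tested genes only 0.338% were higher and 0.2% lower. In MDA-MB-468 2 of the 13 were higher and 1 lower, against 7.37% and 9.61% of all tested genes.

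MYC, the growth regulator that BET inhibitors lower in blood cancers, read 11.08 against 11.04 and 11.07 in MDA-MB-231, and 10.46 against 10.53 and 10.59 in MDA-MB-468. Its log2 fold change was -0.04 (standard error 0.0852, adjusted p = 0.824), and a second MYC probe had 0.14 (adjusted p = 0.544). MXD4, which competes with MYC for the partner MAX, rose by 0.79 (standard error 0.115, adjusted p = 0.0466). It read 9.10 against 8.61 and 8.38 in MDA-MB-231, and 8.88 against 7.94 and 7.87 in MDA-MB-468. Of 34 tested MYC target genes of ribosome biogenesis none was called over both lines, against 0.338% higher and 0.2% lower over all tested genes. Their median was -0.12, against -0.02 over all 13002 tested genes. In MDA-MB-468 3 of the 34 were lower, close to the 9.61% of all tested genes lower in that line. They include RRS1 (-0.88) and MRTO4 (-0.77), both assembly factors of the large ribosomal subunit.

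**Figure D2:**
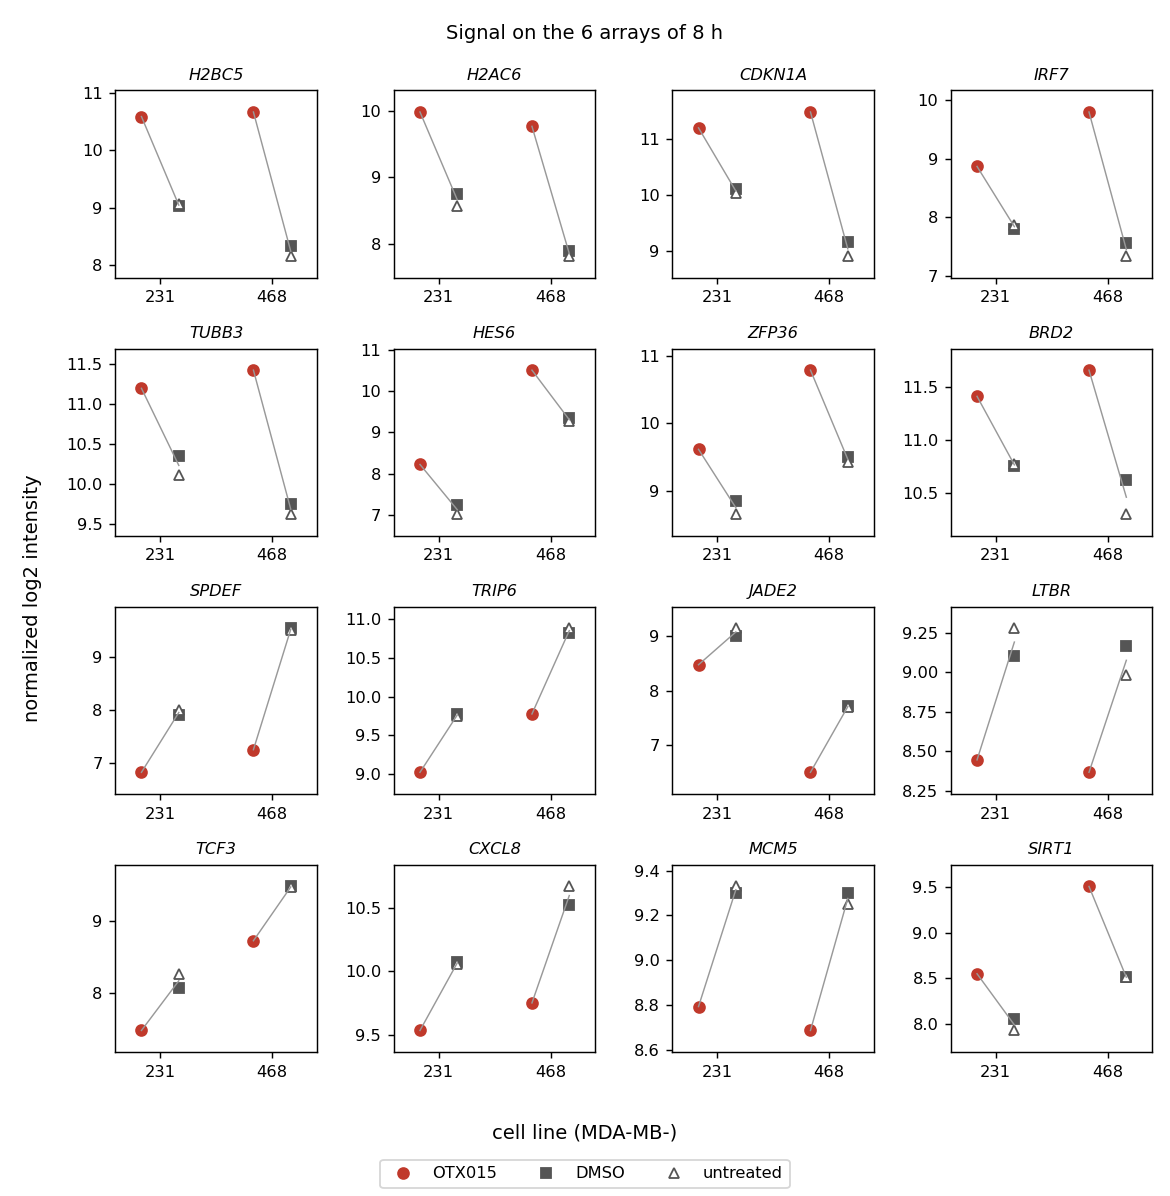
Normalized log2 intensity on the 6 arrays of 8 h for 16 called genes, 1 panel a gene with its own y axis. In each panel MDA-MB-231 is left and MDA-MB-468 right, with the OTX015 array (red circle) left of its DMSO (square) and untreated (triangle) arrays; the grey line runs to the mean of the 2 controls, and the OTX015 array lies outside both controls of its line.

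SPDEF, an ETS transcription factor of luminal and secretory epithelium, had the steepest fall. It read 6.82 with OTX015 against 7.90 with DMSO and 8.01 untreated in MDA-MB-231, and 7.25 against 9.55 and 9.51 in MDA-MB-468. The change was -1.71 (standard error 0.216, adjusted p = 0.0389), and it was larger in MDA-MB-468 (difference -1.15, adjusted p = 0.0119). TRIP6, a LIM-domain adaptor of focal adhesions, read 9.02 against 9.78 and 9.75 in MDA-MB-231, and 9.78 against 10.82 and 10.88 in MDA-MB-468. It changed by -0.91 (standard error 0.101, adjusted p = 0.0322).

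JADE2, a scaffold of the HBO1 histone acetyltransferase complex, changed by -0.90 (adjusted p = 0.0488). LTBR, the lymphotoxin-beta receptor that feeds the non-canonical NF-kappaB pathway, read 8.44 against 9.10 and 9.28 in MDA-MB-231, and 8.37 against 9.17 and 8.98 in MDA-MB-468. Its changes of -0.75 and -0.71 differed by 0.04 (adjusted p = 0.939). TCF3, a helix-loop-helix transcription factor, changed by -0.72 (adjusted p = 0.0389), and PCGF2, a Polycomb ring finger protein, by -0.71 (adjusted p = 0.0410). SPRY1, a feedback inhibitor of receptor tyrosine kinase signalling, was called at 1 probe (-0.70, adjusted p = 0.0488), while its brighter probe had -0.39 (adjusted p = 0.123). The remaining falls named by rule were CCDC86 (-0.74), SLC43A3 (-0.72), LYPD6B (-0.72), ACOT2 (-0.71) and NACC1 (-0.69).

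Of the 74 called genes, 22 had further tested probes that were not called, 29 in number. Of these probes 25 had the sign of the called probe, 9 of them at 0.5 or more. H2BC5 and H2BC12 had 2 tested probes each, and both were called. The called change thus rests on a single probe for most genes.

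Histone genes were called in both single lines and over both. Clustered histone genes encode the bulk of nucleosomal histones, and most of their mRNAs end in a stem loop without a poly(A) tail, while the labelling used here primes on poly(A). Of 37 tested genes 6 rose over both lines (H2BC5, H2AC6, H2BC12, H4C8, H2AC20 and H1-2), none fell and 31 did not pass, against 0.338% higher over all tested genes. The count of 6 was 0 with a normexp offset of 16 and with median scaling. It was also 0 without the untreated array of MDA-MB-231 or either control of MDA-MB-468. It was 2 without the DMSO array of MDA-MB-231, and 15 with the spread of all 18 arrays. The OTX015 array was above both controls in both lines for 28 of 37, against 20.3% of all tested genes, and their median change was 0.36, against -0.02.

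In single lines 11 of the 37 rose in MDA-MB-231, against 19 in MDA-MB-468, with 10 genes in both and none lower, although 1 was called lower in MDA-MB-468 when arrays were scaled by their medians. Over all tested genes 0.569% rose in MDA-MB-231, against 7.37% in MDA-MB-468. The histone count in MDA-MB-231 was 2 without its untreated array and 7 without its DMSO array. H2BC21 and H2BC11, histone H2B genes, did not pass over both lines (1.83, adjusted p = 0.0582, and 1.81, adjusted p = 0.0639). Their changes differed between the lines by 1.86 and 1.99 (adjusted p = 2.63e-05 and 6.81e-06). H2BC21 read 7.69 against 6.82 and 6.76 in MDA-MB-231 (0.90, adjusted p = 0.00371), and 9.41 against 6.76 and 6.55 in MDA-MB-468 (2.76, adjusted p = 4.12e-09). H2BC11 had 0.81 in MDA-MB-231, against 2.80 in MDA-MB-468, where its controls were below the floor and the change was at least 6.60-fold. For 14 of the 37 genes the response differed between the lines, in each case larger in MDA-MB-468, against 13.4% of all tested genes that differed.

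The genes did not move alike. The range over the 37 was -0.12 to 1.54 in MDA-MB-231, against -0.23 to 2.80 in MDA-MB-468. H2AC18 and H2AC19 (2.12 and 2.52 in MDA-MB-468) are near-identical copies, as are H4C14 and H4C15 (1.73 and 1.42), and a probe may read both of a pair. Among 11 tested histone variants outside the clusters none was called over both lines, against 0.338% higher and 0.2% lower over all tested genes. In MDA-MB-468, with 7.37% of all tested genes higher, 6 of the 11 rose, among them H2AX (1.20), H1-10 (1.01) and H3-3B (0.97), and the macroH2A gene MACROH2A2 fell (-1.09).

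**Figure D3:**
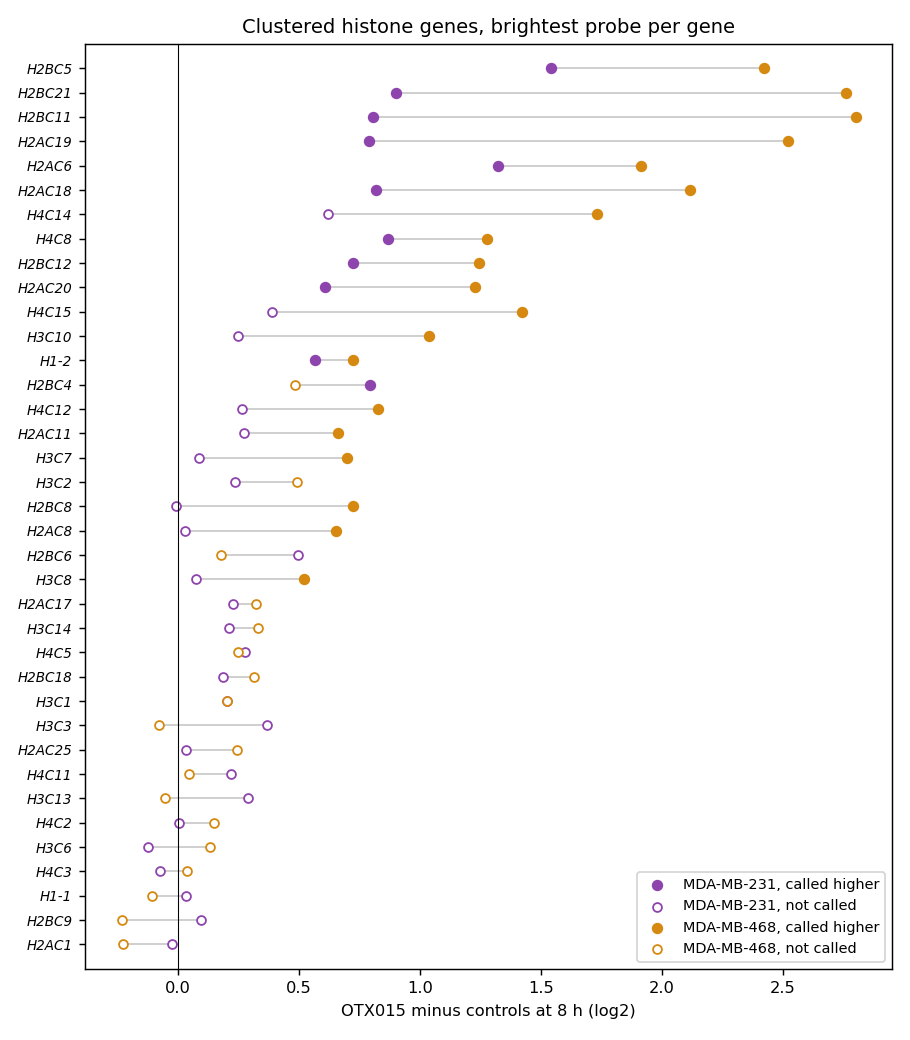
Change at 8 h (log2 intensity with OTX015 minus the mean of both controls, x axis) of the 37 tested clustered histone genes, sorted by the mean of both lines. Each line of the plot joins MDA-MB-231 (purple) with MDA-MB-468 (orange); filled points were called higher, 11 for MDA-MB-231 and 19 for MDA-MB-468, and open points were not called.

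Promoters are shown for 4 of the histone genes that rose together and, for contrast, for HES6, a non-histone gene whose rise was close in size in the lines. The 300 bases run from 250 before to 50 after the RefSeq start in GRCh38.p14, 5′ to 3′ on the gene's strand. Capitals mark the CCAAT box (CCAAT) and the TATA box (TATAAA), each searched on both strands, and runs of capitals can hold overlapping matches.
H2BC5 promoter, chr6:26157871-26158170, plus strand: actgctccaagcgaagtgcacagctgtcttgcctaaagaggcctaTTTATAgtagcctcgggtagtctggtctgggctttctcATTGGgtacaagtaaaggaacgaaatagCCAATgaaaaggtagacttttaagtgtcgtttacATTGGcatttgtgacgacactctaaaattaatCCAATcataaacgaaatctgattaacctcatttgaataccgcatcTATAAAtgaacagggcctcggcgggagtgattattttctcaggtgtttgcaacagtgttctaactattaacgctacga
H2BC12 promoter, chr6:27146809-27147108, minus strand: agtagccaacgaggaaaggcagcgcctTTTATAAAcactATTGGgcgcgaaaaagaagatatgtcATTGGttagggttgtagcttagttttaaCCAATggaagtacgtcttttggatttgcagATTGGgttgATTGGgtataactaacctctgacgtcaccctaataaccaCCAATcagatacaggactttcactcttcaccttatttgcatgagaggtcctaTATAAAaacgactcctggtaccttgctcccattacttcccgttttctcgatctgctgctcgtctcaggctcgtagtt
H2AC6 promoter, chr6:26123922-26124221, plus strand: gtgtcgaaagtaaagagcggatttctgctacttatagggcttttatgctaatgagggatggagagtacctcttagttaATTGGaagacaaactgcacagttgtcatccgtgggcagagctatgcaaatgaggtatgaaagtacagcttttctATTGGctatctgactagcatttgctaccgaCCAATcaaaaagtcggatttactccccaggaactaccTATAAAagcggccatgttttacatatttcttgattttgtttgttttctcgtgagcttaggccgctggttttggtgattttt
H4C8 promoter, chr6:26285485-26285784, minus strand: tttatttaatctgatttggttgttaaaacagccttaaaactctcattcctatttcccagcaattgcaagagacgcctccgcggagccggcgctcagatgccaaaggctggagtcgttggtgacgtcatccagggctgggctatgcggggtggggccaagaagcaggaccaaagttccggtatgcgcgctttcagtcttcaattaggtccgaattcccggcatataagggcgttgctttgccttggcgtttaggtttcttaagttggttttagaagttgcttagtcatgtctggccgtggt
HES6 promoter, chr2:238239989-238240288, minus strand: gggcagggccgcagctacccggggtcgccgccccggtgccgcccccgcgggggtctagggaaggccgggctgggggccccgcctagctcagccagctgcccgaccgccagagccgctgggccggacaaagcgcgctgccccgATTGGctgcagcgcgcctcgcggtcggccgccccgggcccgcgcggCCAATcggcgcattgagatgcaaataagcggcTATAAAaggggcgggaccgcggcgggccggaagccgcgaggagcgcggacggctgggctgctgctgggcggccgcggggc

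H2BC5 held 4 CCAAT and 2 TATA matches, H2BC12 6 and 3, H2AC6 3 and 1, and HES6 2 and 1, while H4C8 had no match to either although its transcript rose by 1.07. A CCAAT match was present in 29 of 36 tested histone promoters (80.6%) and a TATA match in 26 (72.2%), whether or not the gene was called, against 37.3% and 6.61% of the 10350 promoters of tested genes, and 35.7% and 12% of all 27305 promoters of the same length. Among the other genes called higher, 13 of 32 promoters held CCAAT (40.6%) and 5 held TATAAA (15.6%). Among genes called lower 4 of 22 held CCAAT (18.2%) and 3 TATAAA (13.6%). The E-box CACGTG, bound by MYC with MAX, was found in 7 of 38 promoters of genes called higher (18.4%) and 5 of 22 of genes called lower (22.7%), against 10% of the promoters of tested genes and 7.43% of all promoters. These shares describe letters in a window and were not tested.

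Taken singly, the lines differed in how many probes moved. In MDA-MB-231 158 probes were called (0.662%), 99 higher (0.415%) and 59 lower (0.247%). In MDA-MB-468 3376 were called (14.1%), 1501 higher (6.29%) and 1875 lower (7.86%). These counts come from the fit of all 18 arrays, whose spread is that between the DMSO and untreated arrays of a line and time. Each lone OTX015 array was assumed to vary like those pairs. The MDA-MB-231 count was 15 without its untreated array and 33 without its DMSO array, and the MDA-MB-468 count rests on the OTX015 array with the lowest signal. The standard deviation of the response over all tested probes was 0.183 in MDA-MB-231, against 0.379 in MDA-MB-468, while DMSO and untreated arrays of 8 h differed by 0.128 and 0.143. In MDA-MB-468 it was 0.423 at 4 h and 0.36 at 24 h, times at which its OTX015 arrays had mean signals of 405.1 and 361.0. The 4 h value includes 50 probes that were at least 2 log2 units low on both 4 h controls of that line. The part of array signal in this spread was not tested. Of the probes called in single lines, 55 were higher and 12 lower in both, which together are 42.4% of the MDA-MB-231 calls and 1.98% of the MDA-MB-468 calls. Another 2 were called with opposite signs.

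Some genes of the G1 and S phase machinery fell in MDA-MB-468. CDK6, the kinase partner of D-type cyclins, read 7.70 against 8.60 and 8.52 (-0.86, adjusted p = 7.02e-05), and E2F2, an activator of S-phase genes, had -1.19 (adjusted p = 2.07e-05). Of 15 tested cyclins, kinases and E2F genes 4 fell and none rose, and of 31 DNA replication genes 7 fell and 1, RRM2, rose (0.94), against 9.61% of all genes lower and 7.37% higher in this line. MCM2 and MCM5, subunits of the replicative helicase, had -1.47 and -0.59 in MDA-MB-468, against -0.58 and -0.52 in MDA-MB-231. MCM5 was the only replication gene called over both lines (-0.56, adjusted p = 0.0488), with readings of 8.79 against 9.30 and 9.33 in MDA-MB-231, and 8.69 against 9.30 and 9.25 in MDA-MB-468. None of these 31 genes passed in MDA-MB-231 alone, where 0.569% of all tested genes were higher and 0.338% lower. Over both lines the all-gene shares were 0.338% and 0.2%. The rise of RRM2 in MDA-MB-468 ran from 0.13 to 0.99 over 10 alternatives in processing or arrays.

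Several cytokine genes fell. CXCL8, which encodes the neutrophil chemokine interleukin-8, read 9.53 with OTX015 against 10.07 and 10.06 in MDA-MB-231, and 9.75 against 10.53 and 10.67 in MDA-MB-468. It fell over both lines (-0.69, standard error 0.103, adjusted p = 0.0486). It was the only call over both lines among 23 tested NF-kappaB targets and cytokines, against 0.338% higher and 0.2% lower over all tested genes. In MDA-MB-468 7 of the 23 fell and none rose, against 9.61% lower and 7.37% higher over all tested genes. CXCL1 had -1.06 there, and the chemokines CCL20 and CCL2 were lower by at least 1.60-fold and 1.30-fold, since both dropped below the floor. IL6 also dropped below the floor and was lower by at least 1.40-fold, and ICAM1 had -0.77. Over 9 alternatives in processing or arrays the log2 change of IL6 ran from -1.03 to -0.09. The falls did not all last: at 24 h CCL20 had 1.41, IL6 0.69 and ICAM1 0.33 in this line. CXCL1 and CCL2 still had -0.58 and -0.66. In MDA-MB-231 IL1B fell (-0.72, adjusted p = 0.00604), a gene whose MDA-MB-468 signal was under the floor.

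Among interferon-stimulated genes the rise of IRF7 stood alone over both lines. Of 23 tested, 5 fell in MDA-MB-468, among them ISG20 (-0.81) and IFI44 (-0.79), and 2 rose there, against 9.61% lower and 7.37% higher over all tested genes, so the rises were near the all-gene share. In MDA-MB-231 only IRF7 was called. Of all tested genes 0.338% were higher over both lines and 0.569% in MDA-MB-231. The median over the list was -0.22. IL7R, the interleukin-7 receptor chain, dropped in MDA-MB-468. It read 5.99 with OTX015, below the floor, against 9.08 and 9.07, and was lower by at least 6.14-fold (adjusted p = 5.38e-07). In MDA-MB-231 it read 6.59 against 6.99 and 7.44, and its change of -0.62 did not pass (adjusted p = 0.211).

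Immediate early genes, which respond within minutes to growth factors and stress, included 21 tested members. In MDA-MB-468 6 rose and none fell, against 7.37% higher and 9.61% lower over all tested genes. FOS, a subunit of the factor AP-1, read 11.90 with OTX015 against 10.36 and 10.35 (1.55, adjusted p = 4.15e-06). In MDA-MB-231 it read 8.71 against 8.39 and 8.18 (0.43, adjusted p = 0.177), and the difference of 1.12 passed (adjusted p = 0.00277). ZFP36 was the only member called over both lines, and also the only one in MDA-MB-231. Of all tested genes 0.338% were higher over both lines and 0.569% in MDA-MB-231.

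Tubulins form the microtubules. Of 15 tubulin genes 6 rose in MDA-MB-468, where 7.37% of all tested genes did, and none in MDA-MB-231, where 0.569% did. TUBB2A read 10.33 against 8.95 and 8.70 in MDA-MB-468, and 9.02 against 8.68 and 8.73 in MDA-MB-231, a difference in response of 1.19. TUBB4B had 1.48 in MDA-MB-468, against 0.33 in MDA-MB-231, and for both genes the difference passed (adjusted p = 0.000559 and 0.00886). Tubulin genes are close in sequence, and a probe may read more than 1.

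The counts of stress-related lists that follow are for MDA-MB-468, where 7.37% of all tested genes were higher and 9.61% lower. Of 29 hypoxia-induced genes 7 rose and 2 fell, the falls below the all-gene share. ADM, which encodes the vasodilator adrenomedullin, read 11.68 against 9.83 and 9.77 (1.88), P4HA1, a collagen prolyl hydroxylase, had 1.18, and ZNF395 had -1.12. Of 18 p53 targets 6 rose, among them CDKN1A, GADD45A (1.06) and SESN1 (0.89), and PHLDA3 fell (-1.24). Of 14 genes of the unfolded protein response 4 rose, with the chaperone HSPA5 at 0.88, and TRIB3 fell (-1.46). Of 14 cholesterol synthesis genes 5 rose and none fell, MSMO1 by 0.88. Over 10 alternatives in processing or arrays, HSPA5 ran from 0.07 to 0.95, MSMO1 from 0.07 to 0.96 and SESN1 from 0.17 to 1.06. GADD45A ran from 0.23 to 1.14, P4HA1 from 0.38 to 1.32 and ADM from 1.07 to 1.92. Among the falls TRIB3 ran from -2.22 to -1.39, ZNF395 from -1.68 to -0.95 and, over 9 alternatives, PHLDA3 from -1.54 to -0.95.

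SQSTM1, the autophagy receptor p62, rose over both lines (0.61, standard error 0.0879, adjusted p = 0.0466). It read 12.27 against 11.68 and 11.72 in MDA-MB-231, and 12.33 against 11.61 and 11.74 in MDA-MB-468, and the changes differed by 0.09 (adjusted p = 0.775). SIRT1, a NAD-dependent deacetylase, rose by 0.78 (adjusted p = 0.0466). It was the only call over both lines among 16 histone deacetylase genes, against 0.338% higher and 0.2% lower over all tested genes. MT1X, a metal-binding metallothionein, rose by 0.74 (standard error 0.0874, adjusted p = 0.0387). Metallothioneins were a list with more calls in MDA-MB-231, 3 of 6, than in MDA-MB-468, where MT1X alone passed. The 3 were MT1E (0.51), MT1G (0.58) and MT1X (0.66). Of all tested genes 0.569% rose in MDA-MB-231, against 7.37% in MDA-MB-468. MT1E differed between the lines by -0.23 (adjusted p = 0.331), and MT1G by -0.79 (adjusted p = 0.00276).

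Some genes of the epithelial state fell in MDA-MB-468. GRHL2, a keeper of epithelial junctions, read 7.16 against 8.46 and 8.44 (-1.29, adjusted p = 9.30e-06), and KLF5 was lower by at least 1.58-fold. Of 15 tested mammary lineage factors 3 fell there, SPDEF, GRHL2 and KLF5, and 2 rose, against 9.61% and 7.37% of all tested genes. CDH1 and EPCAM were not called in either line. In MDA-MB-231 SPDEF was the only call among these factors, against 0.338% lower over all tested genes. NRG1, a ligand of ERBB3 and ERBB4, fell in MDA-MB-231 (-0.85, adjusted p = 0.00282), reading 8.57 against 9.45 and 9.41. Its MDA-MB-468 signal was under the floor.

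**Figure D4:**
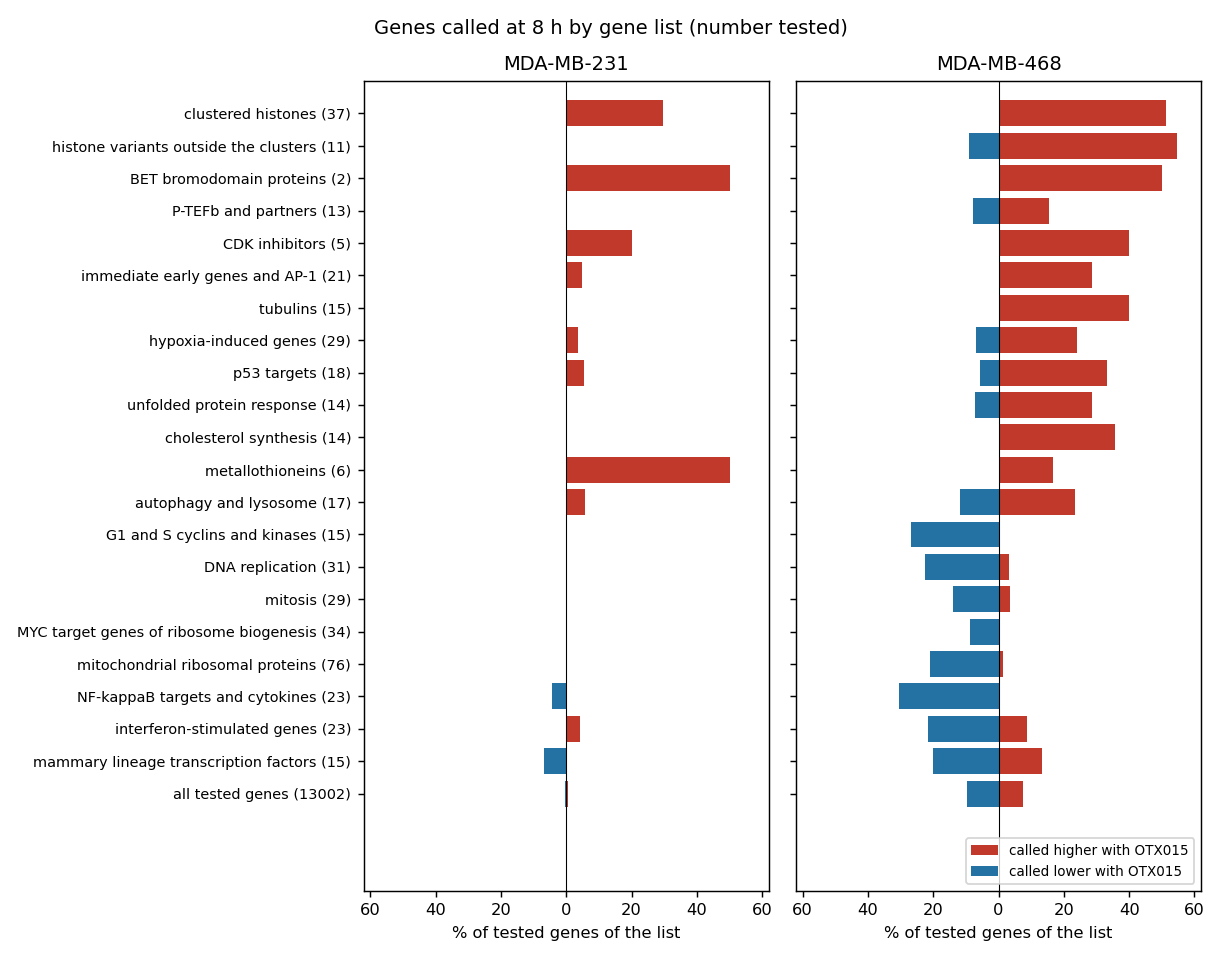
Share of the tested genes of each list shown that were called higher (red, to the right) or lower (blue, to the left) with OTX015 at 8 h, by line (left MDA-MB-231, right MDA-MB-468), with the number tested in parentheses. In the bottom row, over all 13002 tested genes, the shares are 0.569% higher and 0.338% lower in MDA-MB-231 and 7.37% and 9.61% in MDA-MB-468.

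The difference between the 2 responses was tested directly. It passed for 2693 probes (11.3%), 1137 with the higher and 1556 with the lower response in MDA-MB-468, and for 1711, 1783 and 1724 without the untreated or DMSO array of MDA-MB-231 or the untreated array of MDA-MB-468. ADARB1, an RNA-editing adenosine deaminase, read 11.36 with OTX015 against 8.97 and 8.77 in MDA-MB-468, and 8.07 against 7.64 and 7.67 in MDA-MB-231, a difference of 2.08 (adjusted p = 2.94e-05). FYN, a kinase of the SRC family, rose in MDA-MB-468 by at least 3.64-fold at the probe with the largest difference (1.97), and had 0.13 in MDA-MB-231. FZD9, a WNT receptor, and SLC6A10P, a transporter pseudogene, differed by 1.78 and 2.06 and were below the floor in MDA-MB-231. FGFBP1, a carrier protein of fibroblast growth factors, read 6.53 against 9.14 and 9.19 in MDA-MB-468 and was below the floor in MDA-MB-231 (difference -2.55, adjusted p = 3.5e-06).

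The largest negative differences rested on single probes of 1 array. On the OTX015 array of MDA-MB-468, 5 bright probes read at least 2 log2 units below all other arrays of the line: MRPL33, ROMO1, RPS29, CMAS and SRSF1. The OTX015 array of 24 h in that line had 2 such probes and the other 16 arrays none. MRPL33, a mitochondrial ribosomal protein, read 5.66 with OTX015 against 12.30 and 12.26, while its second probe read 10.32 against 10.72 and 10.94 and was also called lower there (-0.51, adjusted p = 0.0138). ROMO1, a mitochondrial membrane protein, read 5.87 against 12.06 and 11.99, and its second probe 12.15 against 11.96 and 11.81. CMAS, which activates sialic acid, read 5.82 against 10.09 and 10.13, and its second probe 10.41 against 10.09 and 10.18. RPS29, a cytosolic ribosomal protein, read 8.29 against 13.51 and 13.55, and its brightest probe 13.71 against 13.60 and 13.58. Another bright RPS29 probe read 12.48 against 13.11 and 13.17 and was also called lower (-0.66, adjusted p = 0.000552). SRSF1, a splicing factor, has 1 tested probe, which read 8.34 against 11.36 and 11.46. At 4 and 24 h these probes had responses from -0.37 to 0.20 in MDA-MB-468. The difference count was little changed without the 5 probes, 2685.

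Further mitochondrial ribosomal protein genes fell in MDA-MB-468. Of 76 tested 16 were lower, MRPL33 included, and 1 higher, against 9.61% lower and 7.37% higher over all tested genes. MRPL37 had -0.97, MRPL1 -0.80 and MRPS16 -0.74. None passed in MDA-MB-231 or over both lines, where their median was -0.15. Over all tested genes 0.569% were higher and 0.338% lower in MDA-MB-231, and 0.338% and 0.2% over both lines. Of 76 cytosolic ribosomal protein genes 3 were lower in MDA-MB-468 and none higher, both below the all-gene shares.

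The response at 8 h was set against those at 4 and 24 h. For the 59 probes called higher at 8 h, the median change in MDA-MB-231 was 0.40 at 4 h, 0.65 at 8 h and 0.52 at 24 h. In MDA-MB-468 it was 0.79, 1.01 and 0.94. At the times that did not choose them, 55 of the 59 were above 0 at 4 h and 59 at 24 h in MDA-MB-231, and 59 at both in MDA-MB-468. The 28 probes called lower had medians of -0.19, -0.56 and -0.32 in MDA-MB-231, and of -0.39, -0.77 and -0.87 in MDA-MB-468. Of these 28, 2 at each of the 2 other times were above 0 in MDA-MB-231, and 7 at 4 h and 1 at 24 h in MDA-MB-468. Of all 23865 tested probes, about 11730 at 4 h and 11710 at 24 h were above 0 in MDA-MB-231. In MDA-MB-468 about 10600 and 12140 were.

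**Figure D5:**
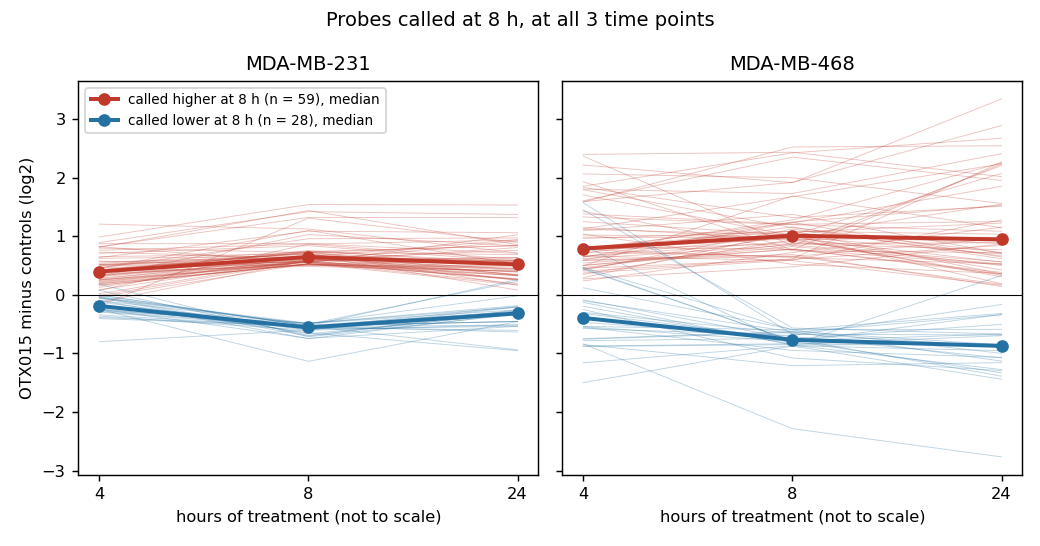
Change with OTX015 (log2 intensity minus the mean of both controls of the same time, y axis) at 4, 8 and 24 h for the probes called at 8 h. Thin lines are single probes and thick lines medians of the 59 called higher (red) and 28 called lower (blue); the medians lie on one side of 0 at all 3 times, and the probes were chosen by their 8 h values.

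The genes followed different courses. CDKN1A had 1.21, 1.12 and 0.72 at 4, 8 and 24 h in MDA-MB-231, and 2.40, 2.43 and 2.02 in MDA-MB-468, and 8 h differed from 4 h by -0.02 (adjusted p = 0.943). H2BC5 had 0.99, 1.54 and 1.53 in MDA-MB-231, and 1.85, 2.42 and 2.67 in MDA-MB-468, a further rise of 0.56 after 4 h that passed (adjusted p = 0.0115). SPDEF had -0.24, -1.13 and -0.45 in MDA-MB-231, and -0.83, -2.28 and -2.76 in MDA-MB-468, and its change at 8 h was below that at 4 h by -1.17 (adjusted p = 0.00181). TCF3 had 0.08, -0.69 and -0.30 in MDA-MB-231, and -0.08, -0.75 and -1.39 in MDA-MB-468, and 8 h differed from 4 h by -0.72 (adjusted p = 0.0362).

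Over all probes the response at 8 h differed from that at 4 h for 892 (3.74%), 173 more positive and 719 more negative, and from that at 24 h for 218 (0.913%), 82 and 136. The second count ran from 99 without the untreated array of 8 h in MDA-MB-231 to 651 without the DMSO array of 24 h in MDA-MB-468. In MDA-MB-231 alone none passed against either time, with 1890 and 1018 probes at an unadjusted p under 0.05 in limma, while in MDA-MB-468 alone 3747 and 1828 did. The control arrays of 4 h in MDA-MB-468 held 50 probes at least 2 log2 units below all later and treated arrays of the line, and ALDOA, a glycolytic enzyme, had an apparent rise of 5.53 there at 1 probe and 0.07 at another. FOS was higher at 8 h than at 4 h by 0.94 (adjusted p = 0.000998), as were H2BC11 (0.87) and H2BC21 (0.81). IGFBP5, a binding protein of insulin-like growth factors, had -0.63, -0.81 and -2.95 at 4, 8 and 24 h in MDA-MB-468. Over both lines the 8 h response was 1.15 above that of 24 h (adjusted p = 0.00058). It was below the floor in MDA-MB-231.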

How the data were processed

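RNA of the breast cancer lines MDA-MB-231 and MDA-MB-468 was hybridised to 18 Illumina HumanHT-12 v4 arrays, 1 for each line, treatment and time. The authors deposited probe intensities as read in GenomeStudio (version not given in the sources used here), without normalization, and the deposited series table holds their processed log2 values, used here only as an alternative. No value column was left unused (0).

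Intensities were corrected by normexp with an offset of 50, quantile normalized over the 18 arrays and put on the log2 scale with limma 3.58.1 in R 4.3.3. The floor on each array was the 95th percentile of 455 olfactory receptor probes, and a probe had to exceed it on 3 or more of 18 arrays, which 23865 did. Of these 17574 had 1 gene symbol (13002 genes), 3 had several and 6288 none. Symbols came from the platform annotation, updated through RefSeq.

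The response over both lines was fitted by limma on the 6 arrays of 8 h with cell line as a block. Responses within a line, their difference, and the contrasts with 4 and 24 h came from a limma fit of all 18 arrays with 12 coefficients. In it each treated condition is 1 array against 2 controls. The treated arrays add nothing to its spread, which comes from the pairs of controls. The threshold for calls in limma was 0.05 after Benjamini-Hochberg adjustment over all tested probes, with a log2 change of 0.5 or more in size. Where a group lay below the floor, the fold was computed against the floor and given as at least that size. The scripts were tested on simulated data.

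The genes, lists and comparisons were chosen with earlier results of these data known. Named were the 12 strongest rises and 12 strongest falls over both lines, up to 4 called members of each list, the 6 probes a direction with the strongest line difference, the 4 a direction for each contrast of times, genes named by the study and line markers. Further list members given for single lines were chosen after their values were seen. For a gene with several probes the brightest was counted. The number of arrays limits the precision, and array intensities carry no read depth. Alternatives changed the background correction, normalization, filter, controls, spread and arrays included.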

Additional observations from a re-analysis of the deposited data

Results flagged for a closer look

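Responses that differed between the lines, or between 8 h and another time, are collected here. All come from limma tests of the difference itself over 23865 probes. The lines differed for 2693 probes, 8 h differed from 4 h for 892, and 8 h from 24 h for 218.

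The response was more positive in MDA-MB-468 than in MDA-MB-231, on the log2 scale, for ADARB1 by 2.08, SLC6A10P by 2.06, H2BC11 by 1.99, FYN by 1.97, H2BC21 by 1.86, FZD9 by 1.78, a second IRF7 probe by 1.48, EFR3B by 1.44 and CDKN1A by 1.31. Smaller differences of this kind were 0.954 for H2BC12, 0.882 for H2BC5, 0.676 for GDF11 and 0.56 for FGFR3. These genes include 4 histone H2B genes.

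It was more negative in MDA-MB-468 for FGFBP1 (-2.55), a second LYPD6B probe (-1.25), SPDEF (-1.15), a second SLC43A3 probe (-0.893) and JADE2 (-0.605). The 5 most negative differences were at probes that were low on 1 array alone, that of OTX015-treated MDA-MB-468 cells at 8 h: MRPL33 (-6.61), ROMO1 (-6.17), RPS29 (-5.12), CMAS (-4.13) and SRSF1 (-3.18).

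Against 4 h, the 8 h response was more positive for FOS (0.944), H2BC11 (0.865), SCAF8 (0.86) and H2BC21 (0.805). It was more negative for ALDOA (-3.02), whose probe was low on the 4 h controls of MDA-MB-468, and for the single-array probes of MRPL33 (-3.18), ROMO1 (-2.88) and RPS29 (-2.61).

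Against 24 h, it was more positive for IGFBP5 (1.15), GTF3C6 (0.941), CASP14 (0.926) and MMP7 (0.905), and more negative at the same single-array probes of MRPL33 (-3.43), ROMO1 (-3.19), RPS29 (-2.61) and CMAS (-2.27). What made these probes low was not tested.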

How the results depend on the processing

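The count of 87 probes called over both lines was sensitive to the processing. It was 1 with a normexp offset of 16, 0 with median scaling, 320 with cyclic loess, 260 with no filter on dim probes, 221 for probes above the floor on all 6 arrays, 55 for those above it on at least 2 of 6, 135 with trend and robust moderation, 881 with the spread of all 18 arrays, 24 with array weights, 4 with DMSO or with untreated arrays alone as controls, and 0 without a cell line term. Where it was 0, limma gave 1323 probes at an unadjusted p under 0.05 with median scaling and 753 without the line term. Leaving out 1 array gave 0 to 3412, with 3146 to 4355 probes at an unadjusted p under 0.05 where it gave 0. The 881 included all 87, and cyclic loess kept 82. Median scaling moved the median change of all probes to -0.126 over both lines, -0.309 in MDA-MB-468, against 0.0674 in MDA-MB-231.

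The MDA-MB-231 count of 158 was 48 with offset 16, 7 with median scaling, 93 above the floor on all 6 arrays, and 15 to 122 without 1 array. The MDA-MB-468 count of 3376 was 5679 with offset 16, 2124 in the deposited table, 8042 with median scaling (67 higher and 7975 lower), 2041 with cyclic loess, and 3288 to 3503 without 1 array. The 2693 line differences were 7255 with median scaling (44 higher and 7211 lower in MDA-MB-468), 1053 with cyclic loess, 1592 above the floor on all 6 arrays, and 1711 to 2177 without 1 array. The 892 differences from 4 h were 539 in the deposited table, 0 in MDA-MB-231 alone, 3747 in MDA-MB-468 alone and 717 to 855 without 1 array. The 218 from 24 h were 143 with no background correction, 123 in the deposited table, 500 with median scaling (2 more positive and 498 more negative), 126 with cyclic loess, 126 above the floor on all 6 arrays, 0 in MDA-MB-231 alone, 1828 in MDA-MB-468 alone and 99 to 651 without 1 array. The single-line fits and the exclusion of low probes were added after seeing the data. The causes were not tested.

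Over named probes 1767 alternative values kept direction and side of the threshold, 384 no longer passed, 48 newly passed and 16 changed sign. Under median scaling the sign changed for the second probes of ROMO1 (-0.20), RPS29 (-0.18) and CMAS (-0.17) and for CD24 (-0.0838). Leaving out 1 array gave ranges across 0 for FZD9 (-0.0873 to 1.70), the second probes of ROMO1 (-0.004344 to 0.264) and RPS29 (-0.0005541 to 0.125), SRSF1 (-3.07 to 0.12), SCAF8 (-0.13 to 0.001734), BRD3 (-0.30 to 0.25), MYC (-0.10 to 0.0221), PGK1 (-0.25 to 0.0418), CD44 (-0.65 to 0.11), CD24 (-0.0682 to 0.51) and EPCAM (-0.23 to 0.11). The fit over both lines pairs the arrays by cell line, and without that block it called 0 probes, as given above. No further paired analysis was possible by replicate number, because each condition has 1 array in each line.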
